A study of Homo sapiens with 12 samples.

Results

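SK-N-BE2 and NGP are established human neuroblastoma cell lines, both labelled as MYCN-amplified and both with the genotype label WT. The data described here are the 6 control libraries of a series of 12: 3 of untreated SK-N-BE2 and 3 of untreated NGP, taken by line and treatment from the sample labels. "Untreated" means that the cells received the solvent DMSO for 6 days. The same RPMI1640 medium with fetal bovine serum was used for both lines, and polyadenylated RNA was sequenced. In the other 6 libraries the same lines received STM2457, an inhibitor of the RNA methyltransferase METTL3, at 12 µM for SK-N-BE2 and 1 µM for NGP, and these enter only as a second set of samples of each line. The question is how these MYCN-amplified lines differ before any drug is given.

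Neuroblastoma arises from the sympathoadrenal lineage of the neural crest, the embryonic cells that form sympathetic neurons and the chromaffin cells of the adrenal medulla. Most neuroblastoma cells are held in an adrenergic state by a circuit of transcription factors that includes PHOX2A, HAND2 and GATA3, and a minority resemble mesenchymal cells and use other factors. Tumours with amplified MYCN, a member of the MYC family of transcription factors, are an aggressive class, and further amplified or lost chromosome segments distinguish individual lines.

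The deposited values are raw counts of reads for 19923 protein-coding genes. Totals were 50670460 to 58159937 reads in the SK-N-BE2 libraries and 47978261 to 51295198 in the NGP libraries. Levels are given as CPM, the reads of a gene in proportion to the library's total, after TMM scaling, as mean ± SD over 3 libraries, and differences as log2 of SK-N-BE2 over NGP, so that a negative value means a higher level in NGP. The file headers name a different sequencing run for each line, so run and line cannot be told apart in any comparison below. The 13 mitochondrial genes took 8.43% to 11.3% of reads in SK-N-BE2 and 2.78% to 3.64% in NGP libraries, and their part in the other differences was not tested. Line separated the libraries along the first principal component, which held 93.7% of the variance. NGP replicate 1 stood apart from the other NGP libraries on the second component, which held 2.89%. The labels do not say whether replicates are separate cultures, so p-values measure the spread between these libraries, which may be technical.

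Of 14336 genes with enough reads to test, 9284 differed between the lines at an adjusted p under 0.05 (edgeR quasi-likelihood test, Benjamini-Hochberg adjustment), which is 64.8%. Of the tested genes, 33.0% were higher in SK-N-BE2 and 31.8% were higher in NGP. The log2 difference was at least 2 in SK-N-BE2's favour for 11.3% of tested genes and at most -2 for 8.14%. Because calls were so common, a called gene says little by itself, and sizes and levels carry the description. Counts of called list members below are to be read beside these shares, and no list was tested as a set. Without NGP replicate 1 the number of calls was 10384. In the STM2457 libraries of the same lines, which share no sample with the controls, 77.3% of 14187 tested genes were called. Of the 9026 untreated calls that could be tested there, 8124 (90.0%) had the same sign and 7306 (80.9%) were also called with that sign.

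The adrenergic factors were present in both lines in unlike combinations. Of 26 such factors, all tested, 8 were higher in SK-N-BE2, 14 were higher in NGP and 4 did not pass the test, and the median log2 difference was -0.41 against 0.01 over all tested genes. INSM1, a zinc finger factor of neuroendocrine differentiation (chr20:20368104-20370949 on GRCh38, plus strand), had 4.96, 6.44 and 7.07 CPM in the SK-N-BE2 libraries against 258, 227 and 274 CPM in the NGP libraries. Its libraries did not overlap, as was so for 69.4% of all tested genes, and the log2 difference was -5.36 ± 0.18 (SE, adjusted p = 5.88e-09, edgeR).

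Other members of the circuit were shared. HAND2 had 690, 758 and 965 CPM in SK-N-BE2 and 705, 529 and 676 CPM in NGP, so the lines overlapped and the difference did not pass the test (log2 0.34 ± 0.17, adjusted p = 0.0993, edgeR). GATA3, a zinc finger factor of sympathetic neurons, averaged 269 ± 13.1 CPM in SK-N-BE2 and 357 ± 22 in NGP. PHOX2A, a homeodomain factor of autonomic neurons, was moderately higher in SK-N-BE2, at 297 ± 67.1 against 177 ± 41.5 CPM (log2 0.74 ± 0.20, adjusted p = 0.00787, edgeR). SK-N-BE2 also carried more GATA2 (362 ± 46.6 against 121 ± 13.6 CPM), TFAP2B (189 ± 24.4 against 57.4 ± 4.31 CPM) and HEY1, a target of Notch signalling (62.4 ± 7.79 against 5.21 ± 0.766 CPM). NGP carried more SOX11 (554 ± 5.74 against 95.9 ± 3.58 CPM), DACH1 (99.3 ± 17.4 against 13.6 ± 1.93 CPM) and ISL1 (131 ± 3.59 against 43.5 ± 3.31 CPM).

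**Figure D1:**
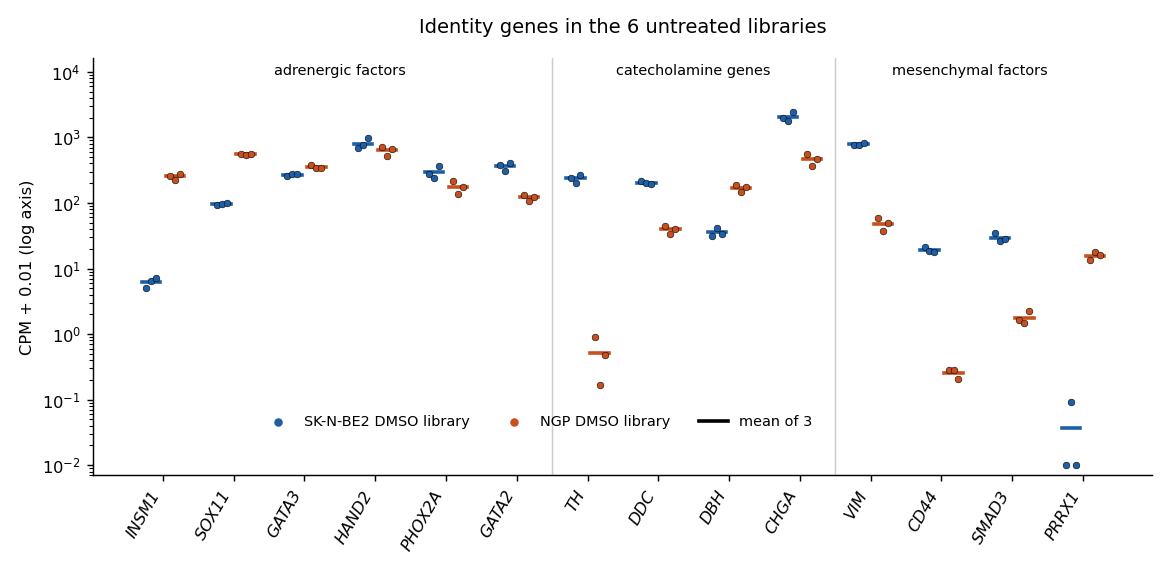
Level of 14 identity genes in each untreated library, in CPM plus 0.01 on a log axis, with points for libraries and bars for the mean of 3. PRRX1 sits near the floor in SK-N-BE2 and TH and CD44 sit under 1 CPM in NGP, while HAND2 overlaps between the lines.

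A list of genes that make, store and break down catecholamines, the transmitters of these cells, also held granule proteins and the neuropeptides NPY, VIP and GAL. Of 21 members tested, 17 were higher in SK-N-BE2, 3 were higher in NGP and 1 did not pass the test, with a median log2 difference of 2.36. TH, the rate-limiting enzyme of catecholamine synthesis (chr11:2163929-2171877, minus strand), had 240, 204 and 265 CPM in SK-N-BE2 and 0.904, 0.159 and 0.469 CPM in NGP. All NGP libraries were thus under 1 CPM, and the log2 difference was 8.85 ± 0.40 (adjusted p = 2.78e-08, edgeR). The names of the lines rest on the sample labels, and the identity of the cells was not tested against DNA profiles. CYB561, which passes electrons to dopamine beta-hydroxylase inside the secretory granule, followed the same pattern, with 203 ± 7.09 CPM in SK-N-BE2 and 0.676 ± 0.0680 in NGP. SLC18A1, a vesicular monoamine transporter, averaged 27.6 ± 3.35 against 0.583 ± 0.185 CPM. DDC, the enzyme after TH, was present in both lines at 204 ± 12.0 against 39.4 ± 5.61 CPM.

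DBH ran the other way. This enzyme, which converts dopamine to noradrenaline, had 31.7, 41.2 and 34.2 CPM in SK-N-BE2 and 190, 148 and 177 CPM in NGP, without overlap (log2 -2.27 ± 0.15, adjusted p = 4.33e-07, edgeR). The granins CHGA and CHGB, which pack the granules, stood at 2060 ± 364 and 2169 ± 99.8 CPM in SK-N-BE2 and at 467 ± 96.0 and 357 ± 54.6 CPM in NGP. The 3 neuropeptide genes counted in the list were higher in SK-N-BE2. VIP, a vasoactive peptide, averaged 47.0 ± 5.89 against 0.171 ± 0.0240 CPM. GAL (galanin) averaged 309 against 65.8 CPM, NPY averaged 58.7 against 5.91 CPM, and all passed the test. TAC3, a neuropeptide gene outside the list, was higher in NGP, at 0.502 ± 0.122 against 7.86 ± 1.75 CPM.

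Of 29 mesenchymal identity genes, 24 were tested. In SK-N-BE2, 14 of them were higher, in NGP 6 were higher, and 4 did not pass the test, with a median log2 difference of 1.13. VIM, the intermediate filament vimentin, had 769, 757 and 827 CPM in SK-N-BE2 and 58.2, 37.2 and 48.8 CPM in NGP (log2 4.03 ± 0.18, adjusted p = 2.83e-08, edgeR). CD44, a hyaluronan receptor, had 19.2 ± 1.77 against 0.249 ± 0.0468 CPM, and SMAD3, a transducer of TGF-beta signals, had 29.6 ± 4.20 against 1.78 ± 0.400 CPM. SOX9 averaged 20.5 ± 1.53 against 0.971 ± 0.168 CPM. Other members were higher in NGP. PRRX1, a homeobox factor of mesenchymal cells, had 4 reads in the SK-N-BE2 libraries together and 13.3, 17.8 and 16.2 CPM in NGP. The regulators YAP1, the effector of the Hippo pathway, and RUNX2 were low in both lines. YAP1 averaged 0.268 ± 0.121 and 0.151 ± 0.0685 CPM, and RUNX2 averaged 0.0849 and 0.0721 CPM. FN1, the matrix protein fibronectin, at 26.7 ± 6.85 and 20.9 ± 4.62 CPM, did not pass the test.

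Immune, erythroid and epithelial markers were low, whereas some fibroblast and endothelial markers were expressed. The summed level of 13 immune and erythroid markers was 5.87 to 6.45 CPM in SK-N-BE2 and 5.97 to 7.88 CPM in NGP, and 11 of them were under 1 CPM in both lines, with PTPRC (CD45) at 0.332 CPM and 0. Epithelial markers summed to 18.1 to 19.7 CPM in SK-N-BE2 and 4.61 to 5.90 CPM in NGP, with KRT5 at 0 in both. Of 6 tested, 5 were higher in SK-N-BE2 and none in NGP. KRT8, a keratin of simple epithelia, averaged 2.50 ± 0.649 against 0.235 ± 0.270 CPM, and its partner KRT18 averaged 0.484 against 0.0130 CPM. Of 9 Schwann cell markers found, 5 were tested. Of these, 1 was higher in SK-N-BE2, 2 were higher in NGP and 2 did not pass the test. SOX10 averaged 0.0581 CPM and 0, and CDH19 was at 0 in both, while PMP22, at 44.3 and 46.8 CPM, made up most of the sum. Of 11 fibroblast and endothelial markers, 10 were tested and 9 were higher in SK-N-BE2, with sums of 146 to 171 CPM against 64.6 to 79.2 CPM. Their median log2 difference was 6.29, against 0.01 over all tested genes. DCN (decorin) averaged 45.1 ± 3.77 against 0.157 ± 0.118 CPM and LUM (lumican) 20.2 ± 1.39 against 5.87 ± 1.21 CPM, while the collagen gene COL1A2 averaged 0.0128 and 0.0589 CPM and COL1A1 was higher in NGP (29.8 ± 3.09 against 8.50 ± 1.58 CPM). The part of these markers in the mesenchymal differences was not tested.

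HOX genes, the homeobox genes that record position along the body axis, differed by cluster. Of 39 genes, 25 were tested, of which 9 were higher in SK-N-BE2, 14 were higher in NGP and 2 did not pass the test. The HOXA cluster was read almost only in NGP: 10 of its 11 genes had 0 reads in the SK-N-BE2 libraries, and HOXA7, the remaining member, had 4. HOXA7 was the highest of the cluster in NGP, at 23.1, 19.6 and 23.4 CPM, although 62.5% of its exon length is shared with another gene and its count is therefore uncertain. HOXA5 followed at 5.63 ± 1.03 CPM and HOXA9 at 0.406 ± 0.0589 CPM. The HOXB cluster was near 0 in both lines, with the highest mean, 0.118 CPM, for HOXB13 in NGP.

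The HOXC and HOXD clusters were expressed in both lines. Their 5′ ends hold the genes that mark the most posterior positions. HOXC10 had 45.6, 61.6 and 53.8 CPM in SK-N-BE2 and 0.373, 0.337 and 0.625 CPM in NGP (log2 6.90 ± 0.25, adjusted p = 8.31e-09, edgeR). HOXC11 averaged 5.09 ± 0.369 against 0.0654 ± 0.0449 CPM, and HOXC9, HOXC8 and HOXC6 were also higher in SK-N-BE2, by a log2 of 2.06, 1.02 and 0.91. HOXC4 at the 3′ end differed by a log2 of 0.37, and HOXC13 at the 5′ end, at 0.236 ± 0.185 against 0.655 ± 0.251 CPM, was higher in NGP. At the 5′ end of HOXD the levels were higher in NGP. HOXD13 had 0.921, 0.917 and 1.13 CPM in SK-N-BE2 and 52.1, 48.1 and 56.8 CPM in NGP (log2 -5.72 ± 0.18, adjusted p = 4.59e-09, edgeR). HOXD11 and HOXD10 were also higher in NGP, at 12.0 ± 1.05 against 0.113 ± 0.0248 CPM and 29.7 ± 3.11 against 3.01 ± 0.495 CPM, whereas HOXD9 was higher in SK-N-BE2 at 57.0 ± 12.5 against 25.3 ± 4.96 CPM. HOXD3 and HOXD8 did not pass the test.

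**Figure D2:**
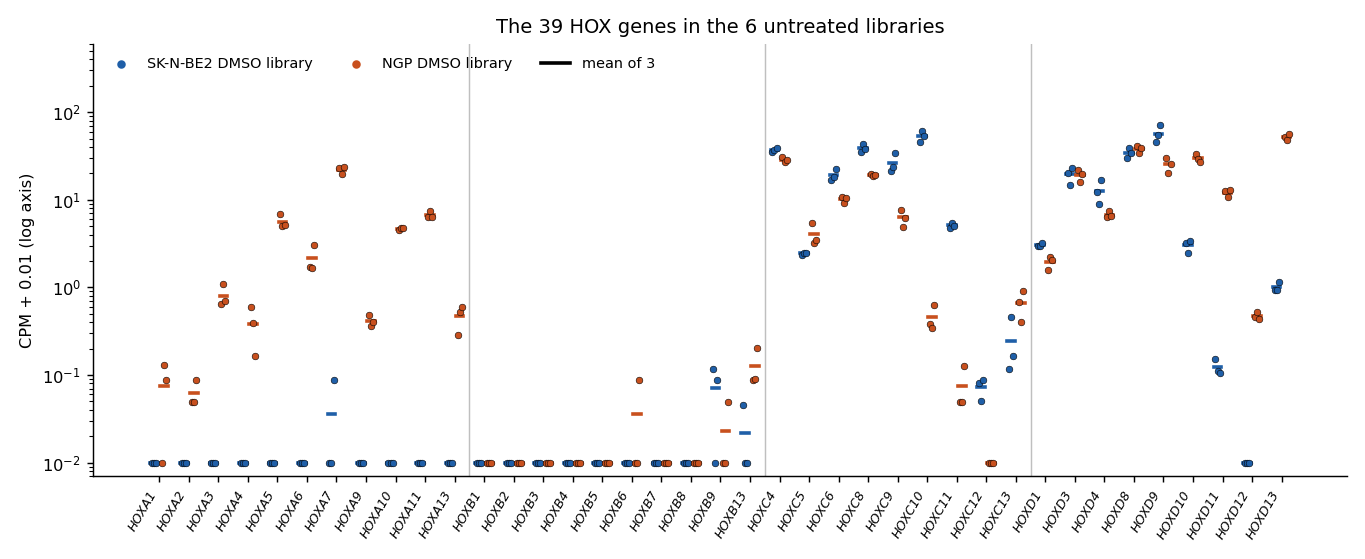
Level of all 39 HOX genes in each untreated library, in CPM plus 0.01 on a log axis, ordered by cluster and number. HOXA genes lie at the floor in SK-N-BE2 and reach 22.0 CPM in NGP, HOXB genes lie near the floor in both, and the lines part at HOXC10 and at HOXD10 to HOXD13.

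Growth factor receptors and their ligands were tested for 25 of 29 genes, of which 7 were higher in SK-N-BE2, 17 were higher in NGP and 1 did not pass the test. RET, the receptor tyrosine kinase for the GDNF family, had 799, 819 and 769 CPM in SK-N-BE2 and 68.7, 115 and 91.9 CPM in NGP, without overlap (log2 3.11 ± 0.19, adjusted p = 2.10e-07, edgeR). GFRA1, the co-receptor that presents GDNF to RET, was opposite, with 1.44 ± 0.168 CPM in SK-N-BE2 against 115 ± 24.6 CPM in NGP. The receptor and its main co-receptor were therefore highest in different lines. The neurotrophin receptors NTRK2 and NGFR were higher in NGP, at 34.9 ± 9.15 against 0.563 ± 0.254 CPM and 253 ± 24.6 against 12.9 ± 1.05 CPM. KIT and PDGFRA, neighbouring receptor tyrosine kinase genes, were both nearly absent in SK-N-BE2. KIT had 6 reads there in all and 33.7, 58.0 and 56.4 CPM in NGP, and PDGFRA had 1.21 ± 0.208 against 132 ± 12.5 CPM. ALK, a kinase that is mutated in a share of neuroblastomas, had 7.25, 6.07 and 7.23 CPM in SK-N-BE2 and 17.3, 40.9 and 34.6 CPM in NGP.

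The related heparin-binding ligands pleiotrophin and midkine were reciprocal. PTN (pleiotrophin) had 248, 242 and 269 CPM in SK-N-BE2 and 0.727, 0.179 and 0.117 CPM in NGP (log2 9.52 ± 0.43, adjusted p = 2.77e-08, edgeR). MDK (midkine) had 36.4, 46.9 and 48.6 CPM in SK-N-BE2 and 987, 632 and 692 CPM in NGP (log2 -4.13 ± 0.21, adjusted p = 6.08e-08, edgeR). Neither gene overlapped between the lines. IGF2, a growth factor, averaged 392 ± 21.4 CPM in NGP and 51.0 ± 21.7 in SK-N-BE2, with 41.6% of its exon length shared with another gene. All 13 genes of surface antigens that are studied as drug or antibody targets in neuroblastoma were called, 7 higher in SK-N-BE2 and 6 higher in NGP. L1CAM and MCAM, adhesion molecules, averaged 656 ± 50.2 against 145 ± 4.86 CPM and 107 ± 12.6 against 6.22 ± 0.887 CPM. DLL3, a Notch ligand, averaged 12.5 ± 3.02 against 103 ± 19 CPM, and B4GALNT1, an enzyme on the route to the ganglioside GD2, averaged 7.67 ± 1.63 against 32.7 ± 4.0 CPM.

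A gene was called silent in a line if all 3 of its libraries were under 0.1 CPM, and expressed if all 3 had at least 10 CPM. By this rule 88 genes were silent in NGP and expressed in SK-N-BE2, which is 0.935% of the 9407 genes expressed in SK-N-BE2, and 37 of them had no read in any NGP library. The reverse held for 31 genes, 0.336% of the 9213 expressed in NGP, and 13 of those had no read in SK-N-BE2. In the STM2457 libraries, 62 of the 88 and 24 of the 31 were under 0.1 CPM in the same line. At the border, STXBP6 was included with a highest value of 0.0815 CPM in SK-N-BE2 and STXBP5L was left out with 0.102 CPM. In NGP, ARPIN was included with 0.0992 CPM and GPD2 was left out with 0.117 CPM.

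The promoters of some of these genes, 250 bases before to 50 after the RefSeq start on GRCh38.p14, are shown because their content of CG dinucleotides, the sites at which human DNA can be methylated, spans the range found among the silent genes. CG, which reads the same on both strands, is in capitals. RAB4A, a small GTPase of endosome recycling, and TRAF5, an adaptor of TNF receptors, were silent in NGP. RPRM, a cell cycle inhibitor, and PAWR, a pro-apoptotic protein, were silent in SK-N-BE2. IFI16, a sensor of foreign DNA, was silent in NGP and has a single CG in this window. The window follows the RefSeq start and lies inside the gene as the authors counted it (chr1:158999968-159055155), not at its start.
RAB4A (chr1:229270861-229271160, plus strand): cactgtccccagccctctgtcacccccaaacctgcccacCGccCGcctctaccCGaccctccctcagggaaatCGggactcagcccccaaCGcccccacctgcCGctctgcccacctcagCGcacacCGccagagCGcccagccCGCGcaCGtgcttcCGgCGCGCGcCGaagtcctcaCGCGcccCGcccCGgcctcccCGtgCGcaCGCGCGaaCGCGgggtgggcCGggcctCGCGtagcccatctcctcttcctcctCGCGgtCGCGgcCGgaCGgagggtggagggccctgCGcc
TRAF5 (chr1:211326385-211326684, plus strand): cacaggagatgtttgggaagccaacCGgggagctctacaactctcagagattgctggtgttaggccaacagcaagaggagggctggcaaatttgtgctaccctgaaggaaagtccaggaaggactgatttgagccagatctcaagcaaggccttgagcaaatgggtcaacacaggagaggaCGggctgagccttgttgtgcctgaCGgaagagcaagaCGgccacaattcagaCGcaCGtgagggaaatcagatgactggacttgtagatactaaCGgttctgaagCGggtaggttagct
RPRM (chr2:153478713-153479012, minus strand): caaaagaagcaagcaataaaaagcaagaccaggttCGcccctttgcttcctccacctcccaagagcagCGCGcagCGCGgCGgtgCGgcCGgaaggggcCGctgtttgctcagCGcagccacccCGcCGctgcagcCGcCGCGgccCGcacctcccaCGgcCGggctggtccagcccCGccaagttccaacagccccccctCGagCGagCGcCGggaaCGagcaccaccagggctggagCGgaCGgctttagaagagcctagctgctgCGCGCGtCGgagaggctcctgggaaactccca
PAWR (chr12:79690915-79691214, minus strand): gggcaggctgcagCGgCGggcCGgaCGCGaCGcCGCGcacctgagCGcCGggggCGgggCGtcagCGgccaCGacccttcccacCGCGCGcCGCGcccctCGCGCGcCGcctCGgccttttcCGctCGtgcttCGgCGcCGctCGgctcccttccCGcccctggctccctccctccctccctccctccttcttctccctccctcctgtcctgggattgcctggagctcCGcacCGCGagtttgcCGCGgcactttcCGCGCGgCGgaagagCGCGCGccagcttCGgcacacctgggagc
IFI16 (chr1:159008741-159009040, plus strand): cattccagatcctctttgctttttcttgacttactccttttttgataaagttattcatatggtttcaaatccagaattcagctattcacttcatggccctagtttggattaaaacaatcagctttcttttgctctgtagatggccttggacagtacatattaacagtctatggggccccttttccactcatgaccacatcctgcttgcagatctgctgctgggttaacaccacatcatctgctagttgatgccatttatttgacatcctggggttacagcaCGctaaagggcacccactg

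These windows held 38, 8, 30, 44 and 1 CG dinucleotides in the order shown. A promoter was matched for 72 of the 88 genes silent in NGP, with a median of 23 CG, and for 27 of the 31 silent in SK-N-BE2, with a median of 19. Of the matched promoters, 87.5% and 92.6% held at least 10 CG. The 6982 matched promoters of genes expressed in both lines had a median of 27, with 93.5% at 10 or more, and all 27305 promoters of the table had a median of 14, with 56.0% at 10 or more. Most silent genes thus had at least 10 CG, with medians below that of genes expressed in both lines. The rule takes only genes expressed in the other line. A share near that of expressed genes therefore cannot say whether silencing favoured CG-rich promoters. DNA methylation was not analysed here.

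Of the genes silent in NGP, IL13RA2, a decoy receptor for interleukin 13, was the highest in SK-N-BE2, at 267, 308 and 259 CPM. It had 0 reads in NGP, so its level in SK-N-BE2 was at least 14102-fold higher. Next came TSPYL5 (116 ± 15.7 CPM, at least 5846-fold), RAB4A (96.0 ± 4.19 CPM, at least 4871-fold), IFI16 (89.9 ± 1.13 CPM, at least 4573-fold) and TRAF5 (78.8 ± 6.52 CPM, at least 4023-fold). Each of these had 0 reads in the untreated NGP libraries. In the NGP libraries with STM2457, RAB4A and TSPYL5 also had 0 reads, TRAF5 had 4, IL13RA2 had 18 and IFI16 had 77.

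Of the genes silent in SK-N-BE2, RPRM was the highest in NGP, at 112, 70.6 and 98.3 CPM, against 4 reads in the SK-N-BE2 libraries together. NEUROG2, a proneural factor, had 88.6, 73.0 and 99.1 CPM in NGP and 0 reads in SK-N-BE2, at least 4567-fold higher in NGP. SP8, a zinc finger factor of the developing forebrain and limb, averaged 46.3 ± 6.04 CPM with 0 reads in SK-N-BE2, at least 2430-fold. GTSF1, a germline gene of the piRNA pathway, averaged 64.6 ± 7.51 CPM against 5 reads. PAWR averaged 43.1 ± 10.3 CPM against 2 reads, a ratio of 3391 (95% counting interval 938 to 28005), and ZIC1, a neural crest factor, 38.8 ± 1.92 CPM against 1 read, a ratio of 6107 (1096 to 241254). The neighbouring desmosome genes DSC2 and DSG2 on chromosome 18 had 0 reads in SK-N-BE2 and 30.0 ± 6.33 and 30.6 ± 6.84 CPM in NGP. RUNX3, a transcription factor gene of 1p, had 5 reads in SK-N-BE2 and 17.7 ± 0.141 CPM in NGP. In the SK-N-BE2 libraries with STM2457, RPRM had 32 reads and RUNX3 had 9, and neither was under 0.1 CPM in all of them. NEUROG2 and ZIC1 had 3 reads each there, and SP8, GTSF1, PAWR, DSC2 and DSG2 had 0.

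**Figure D3:**
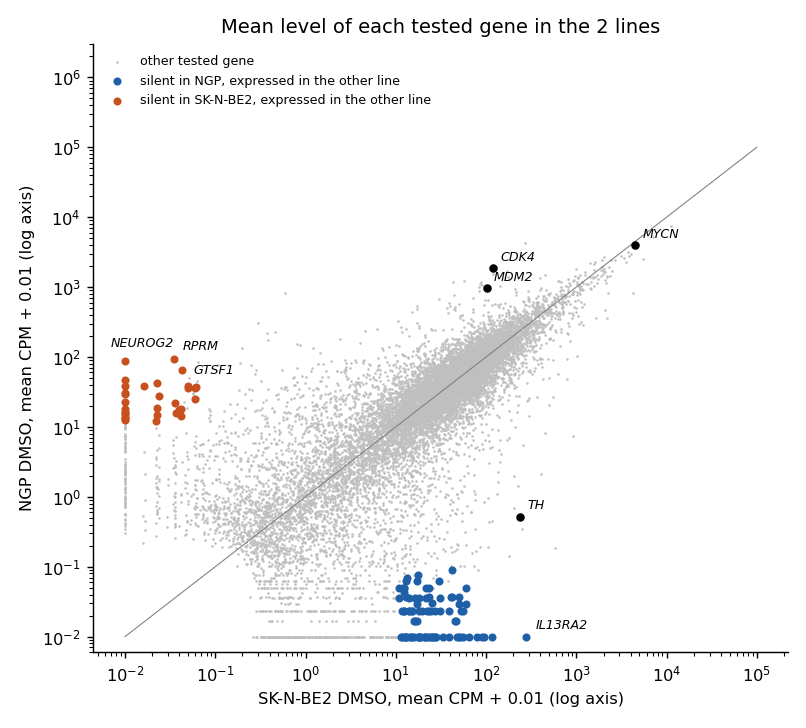
Mean level of each tested gene in untreated SK-N-BE2 (horizontal) and NGP (vertical), in CPM plus 0.01 on log axes, with the line of equal levels. Genes silent in NGP lie along the bottom, up to 278 CPM for IL13RA2, genes silent in SK-N-BE2 lie along the left edge, and MYCN lies near the diagonal at the top.

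MYCN itself was at nearly the same level in both lines. It lies at chr2:15940550-15947007 on the plus strand and had 4465, 4162 and 4810 CPM in SK-N-BE2 and 3787, 3838 and 4318 CPM in NGP. The lines overlapped and the difference did not pass the test (log2 0.17 ± 0.14, adjusted p = 0.313, edgeR). Per kilobase of exon it ranked 16th of 19923 genes in SK-N-BE2 (1712 CPM per kb) and 10th in NGP (1522 CPM per kb). Its neighbours did not share this level. Of 11 tested genes that start within 3 Mb of MYCN, 2 were higher in SK-N-BE2, 6 were higher in NGP and 3 were not called, with a median log2 difference of -0.43. DDX1, the gene most often co-amplified with MYCN, averaged 316 ± 36.1 and 341 ± 23.4 CPM and ranked 374th and 336th per kilobase (log2 -0.11 ± 0.13, adjusted p = 0.481, edgeR). NBAS, next to DDX1, averaged 81.3 against 114 CPM. FAM49A, on the other side of MYCN, had 9.71, 12.0 and 9.94 CPM in SK-N-BE2 and 282, 345 and 348 CPM in NGP (log2 -4.94 ± 0.16, adjusted p = 5.40e-09, edgeR). KCNS3, a potassium channel subunit, averaged 0.112 ± 0.0621 against 10.3 ± 0.624 CPM, and LRATD1 averaged 3.76 ± 0.463 against 43.4 ± 3.57 CPM.

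Of 13 genes of the MYC network, MYCN included, 3 were higher in SK-N-BE2, 3 were higher in NGP and 7 did not pass the test. These 6 calls of 13 stand beside 64.8% of all tested genes. MYC averaged 2.56 ± 0.420 CPM in SK-N-BE2 against 0.263 ± 0.0922 CPM in NGP, and MYCL averaged 10.9 ± 3.43 against 43.5 ± 1.51 CPM. MAX, the obligate partner, averaged 116 ± 2.94 and 102 ± 5.65 CPM and did not pass the test. The repressive partners MXD4 and MGA differed in opposite directions, at 93.7 ± 17 against 30.7 ± 3.81 CPM and 65.5 ± 6.13 against 118 ± 32.8 CPM.

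The run of neighbouring genes with the most members lay on chromosome 12 and was higher in NGP. Runs were built from windows of 5 neighbouring tested genes whose median log2 difference was at least 2 in size. There were 197 runs, 124 higher in SK-N-BE2 and 73 higher in NGP, and 7 of them held at least 15 genes. The 3 long runs that were higher in NGP all lay on 12q. Together their 76 genes took 3.21% to 3.50% of all reads in the NGP libraries and 0.376% to 0.384% in the SK-N-BE2 libraries.

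The first run, from SLC26A10 to MON2 (chr12:57619527-62600476), held 19 genes with a median log2 difference of -2.80, of which 17 were higher in NGP. It includes CDK4, the cyclin D-dependent kinase (chr12:57747727-57756013, minus strand), with 113, 133 and 110 CPM in SK-N-BE2 and 2034, 1649 and 1910 CPM in NGP. The NGP libraries lay far above, with a log2 difference of -3.97 ± 0.16 (adjusted p = 1.31e-08, edgeR), although 44.2% of its exon length is shared with another gene. CDK4 ranked 972nd per kilobase in SK-N-BE2 (38.4 CPM per kb) and 34th in NGP (603 CPM per kb). Its neighbours moved with it: TSPAN31 averaged 17.9 ± 1.91 against 260 ± 14 CPM, METTL1, a tRNA methyltransferase, 13.9 ± 2.60 against 198 ± 30.6 CPM, CTDSP2, a phosphatase, 181 ± 9.61 against 1287 ± 106 CPM, and ATP23 1.53 ± 0.362 against 78.4 ± 7.24 CPM. The level was not raised throughout, since OS9, also inside the run, was not called (log2 0.17). Within 3 Mb of CDK4, 43 of 83 tested genes were higher in NGP and 13 were higher in SK-N-BE2.

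The second run, from DYRK2 to PTPRR (chr12:67648338-70920738), held 17 genes with a median of -3.41, 14 of them higher in NGP. It includes MDM2, a ubiquitin ligase (chr12:68808177-68850686, plus strand), with 105, 104 and 95.3 CPM in SK-N-BE2 and 845, 1072 and 999 CPM in NGP (log2 -3.26 ± 0.14, adjusted p = 2.38e-08, edgeR). All NGP libraries were above all SK-N-BE2 libraries. MDM2 was neither the highest nor the most different gene of its segment. CCT2, a subunit of the cytosolic chaperonin, had 276, 279 and 248 CPM in SK-N-BE2 and 4685, 4009 and 4201 CPM in NGP (log2 -4.01 ± 0.15, adjusted p = 1.05e-08, edgeR), and ranked 22nd per kilobase in NGP (1016 CPM per kb). YEATS4, a chromatin reader, averaged 17.2 ± 0.870 against 480 ± 65.3 CPM, NUP107, a nuclear pore subunit, 57.3 ± 2.34 against 1202 ± 34.9 CPM, and FRS2, an adaptor of FGF receptors, 54.7 ± 5.23 against 393 ± 118 CPM. At the far end, PTPRB and PTPRR had the opposite sign. PTPRR, a tyrosine phosphatase, averaged 202 ± 21.9 CPM in SK-N-BE2 and 1.97 ± 0.0944 CPM in NGP. MDM4, the partner of MDM2, lies outside these runs and averaged 115 ± 6.34 and 115 ± 22.4 CPM (log2 0.00 ± 0.15, adjusted p = 0.994, edgeR).

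The third run, which held the most genes, lay far from both, from P2RX7 to SNRNP35 (chr12:121132819-123473154), with 40 genes, a median of -2.87 and 37 genes higher in NGP. Of its genes, 33 had a log2 difference of at most -2, as had 8.14% of all tested genes. The windows were chosen on this measure, so the count is a description. In the NGP libraries it took 1.72% to 1.91% of reads, more than the CDK4 run (0.50% to 0.52%) or the MDM2 run (0.992% to 1.08%), and in SK-N-BE2 0.182% to 0.191%. MLXIP, a glucose-responsive member of the extended MYC network, had 188, 158 and 179 CPM in SK-N-BE2 and 1336, 1528 and 1268 CPM in NGP (log2 -2.98 ± 0.15, adjusted p = 4.46e-08, edgeR). Other genes of the run, picked after their values were seen, were KNTC1, a kinetochore protein (43.1 ± 5.42 against 1165 ± 265 CPM), ANAPC5, a subunit of the anaphase-promoting complex (170 ± 1.34 against 1673 ± 63.6 CPM), and KDM2B, a histone demethylase (45.6 ± 3.40 against 517 ± 23.7 CPM). The outermost genes P2RX7 and SNRNP35 were higher in SK-N-BE2, so the raised stretch ended inside them. DNA copy number was not analysed here.

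**Figure D4:**
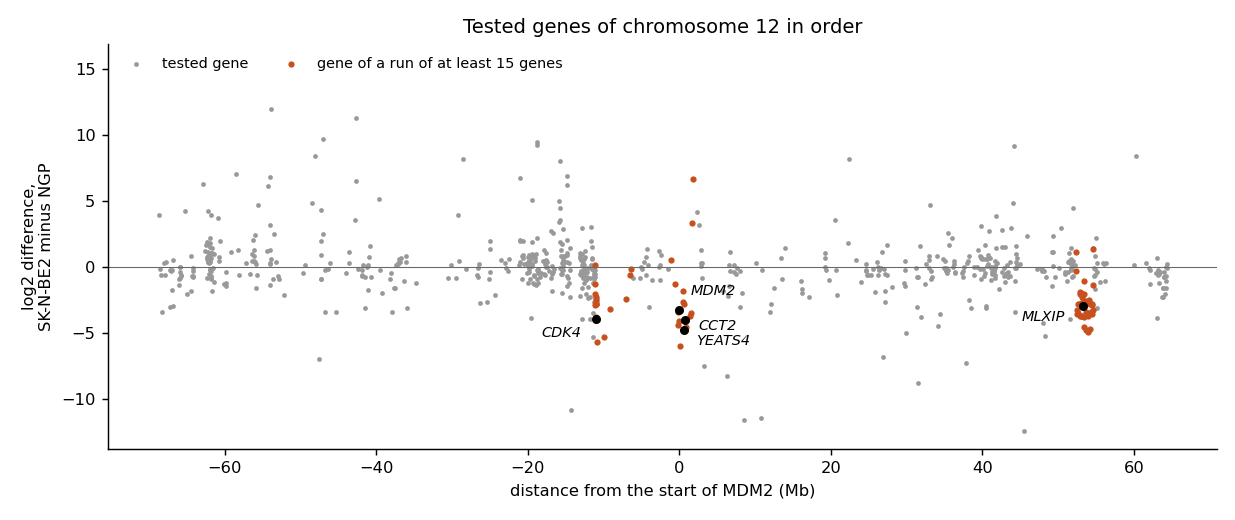
Log2 difference between the lines for each tested gene of chromosome 12, by distance in Mb from the start of MDM2, with genes of runs of at least 15 genes coloured. The 3 coloured groups around CDK4, MDM2 and MLXIP lie mostly below -2, and the genes between them scatter around 0.

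The 4 long runs that were higher in SK-N-BE2 lay on 11q and 19q. Those of 11q ran from JRKL to KBTBD3 (17 genes, median 2.52), from DPAGT1 to GRIK4 (16 genes, median 2.31) and from JHY to ROBO4 (16 genes, median 3.52, all 16 called). The run on 19q, from ZNF480 to ZNF677 (chr19:52297169-53254898), consisted of 16 zinc finger genes with a median of 6.33. Of these, 9 were higher in SK-N-BE2, ZNF480, ZNF611 and ZNF347 were higher in NGP (log2 -0.61, -0.85 and -2.30), and ZNF528, ZNF701, ZNF468 and ZNF160 did not pass the test. Only 5 of the 16 genes reached a mean of 10 CPM in a line, and 2 of those were higher in SK-N-BE2 by a log2 of at least 1. The median of 6.33 thus rests largely on genes of low level. Zinc finger genes of such clusters have close relatives, and reads that fit several of them could have been lost.

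Median levels of chromosome arms also differed between the lines, in some arms through a part of the arm only. Over 41 arms with at least 50 tested genes, 10 had a median log2 difference of at least 0.25 in size. The other 31 lay between -0.15 and 0.20. In all 10 the libraries of the lines did not overlap, which was so for 21 of the 41 arms, and all 10 had the same sign in the STM2457 libraries. The values of each library below are medians over the genes of an arm, relative to each gene's mean over the 6 libraries.

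The largest shift was on 11q, an arm often lost in neuroblastomas without MYCN amplification. The SK-N-BE2 libraries stood at 0.40, 0.44 and 0.45 and the NGP libraries at -0.31, -0.46 and -0.40, and the median difference over 556 genes was 0.81, a fold of 1.75. Of these genes, 340 (61.2%) were higher in SK-N-BE2 and 73 (13.1%) higher in NGP, against 33.0% and 31.8% of all tested genes. Along the arm the median was 0.41 at 60 to 70 Mb, 1.48 at 110 to 120 Mb and 1.51 at 120 to 130 Mb. From 100 to 110 Mb, 28 of 31 genes were higher in SK-N-BE2 and none in NGP. Of 9 genes of 11q discussed in neuroblastoma that were tested, 6 were higher in SK-N-BE2. ATM, the kinase of the DNA damage response, averaged 115 ± 18 against 41.8 ± 16.2 CPM, CADM1, an adhesion molecule, 383 ± 43.8 against 182 ± 28.1 CPM, and SDHD, a subunit of succinate dehydrogenase, 78.5 ± 11 against 22.6 ± 0.50 CPM. CCND1, on the centromeric part of 11q, was the exception called in the other direction, at 380 ± 51.8 against 614 ± 65.9 CPM.

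Chromosome 17 was higher in NGP along its length. On 17p the SK-N-BE2 libraries stood at -0.34, -0.41 and -0.32 and the NGP libraries at 0.38, 0.29 and 0.34, with a median difference of -0.68 over 244 genes, of which 146 (59.8%) were higher in NGP. On 17q, the arm most often gained in neuroblastoma, the libraries stood at -0.23, -0.21 and -0.21 against 0.30, 0.18 and 0.19, with a median difference of -0.45 over 602 genes. Every 10 Mb bin of the chromosome had a negative median, from -0.22 to -1.22, and the lowest lay at 20 to 30 Mb. NF1, which starts just beyond that bin and switches off RAS, had 23.3, 16.6 and 19.1 CPM in SK-N-BE2 and 101, 197 and 164 CPM in NGP (log2 -2.97 ± 0.24, adjusted p = 1.88e-06, edgeR). Of 12 genes of 17q discussed in neuroblastoma, 9 were higher in NGP and none in SK-N-BE2. IGF2BP1, an RNA-binding protein that stabilises MYC family transcripts, had 0.213, 0.285 and 0.365 CPM in SK-N-BE2 and 264, 342 and 315 CPM in NGP (log2 -10.06 ± 0.23, adjusted p = 2.02e-09, edgeR). BIRC5 (survivin) averaged 84.3 ± 15.1 against 176 ± 40.9 CPM and BRIP1, a DNA helicase, 15.1 ± 2.20 against 58.4 ± 14.9 CPM.

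On 3p, 18q and 12q the medians were also lower in SK-N-BE2, by -0.33, -0.61 and -0.26. The 3p shift lay in the outer part of the arm: the bins at 0 to 10, 10 to 20 and 30 to 40 Mb had medians of -1.26, -1.27 and -0.84, and the bin at 40 to 50 Mb had -0.01. In the bin at 10 to 20 Mb, 44 of 52 genes were higher in NGP and 2 were higher in SK-N-BE2. On chromosome 18 the bins from 20 to 40 Mb had -1.05 and -1.08. Without the genes of the 3 long runs, 12q had a median of -0.14 over 498 genes.

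Arms with the opposite sign were 19p (0.43), 4p (0.42), 1q (0.33) and 12p (0.26). On 4p the difference lay at the tip, where the first 10 Mb had a median of 1.17 and 59 of 86 genes were higher in SK-N-BE2. On 19p the SK-N-BE2 libraries stood at 0.19, 0.15 and 0.39 and the NGP libraries at 0.02, -0.37 and -0.25, so NGP replicate 1 lay apart from the other NGP libraries. The 12p shift was 0.00 among genes with at least 10 CPM in a line. It was 0.20 to 0.24 when each library was left out in turn, always under the limit of 0.25. Arm 1p, the arm classically lost with MYCN amplification, had a median of -0.01 over 818 genes, but its parts differed, from -0.36 at 10 to 20 Mb to 0.74 at 100 to 110 Mb. Of 10 genes of 1p discussed in neuroblastoma, 6 were higher in NGP and 1 in SK-N-BE2. TP73, a transcription factor of that arm, averaged 17.6 ± 1.47 against 101 ± 10.9 CPM.

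**Figure D5:**
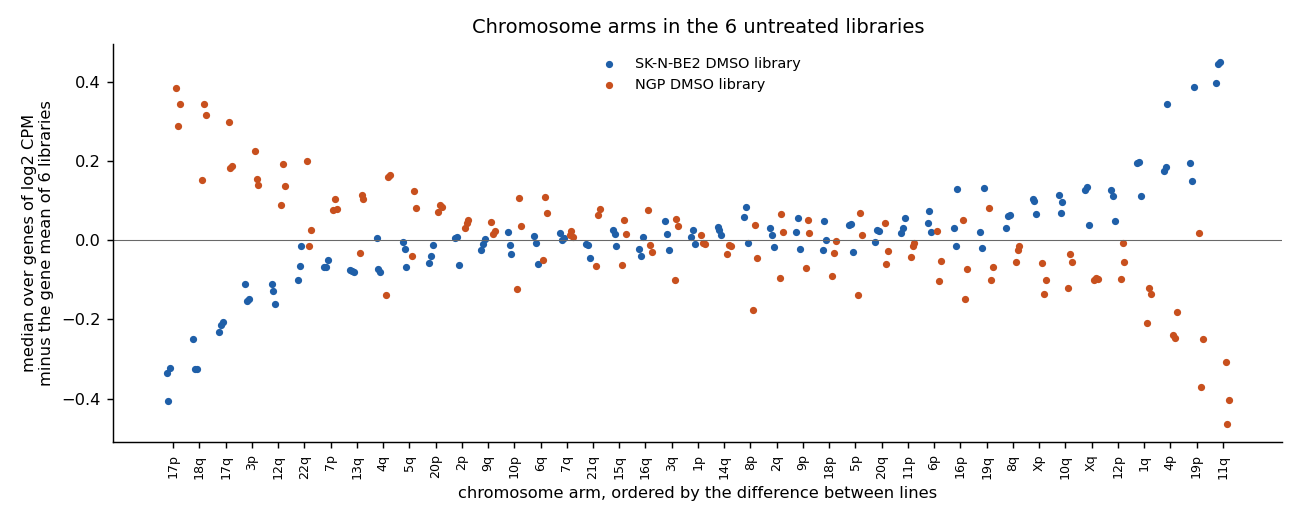
Median over the tested genes of each chromosome arm of log2 CPM relative to the gene's mean over the 6 libraries, with a point for each library and arms ordered by the difference between the lines. The lines separate most on 11q (difference 0.81) and 17p (-0.68) and overlap in the middle of the order.

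Of 20 G1 cyclins, CDKs and their inhibitors, 4 were higher in SK-N-BE2, 12 were higher in NGP and 4 did not pass the test. CDKN1A, the CDK inhibitor p21, averaged 77.8 ± 5.87 against 175 ± 11.6 CPM. The inhibitors of CDK4 and CDK6 were themselves divided. CDKN2C (p18) averaged 56.5 ± 9.08 CPM in SK-N-BE2 and 1.99 ± 0.389 in NGP, CDKN2D (p19) 28.5 ± 3.94 against 5.95 ± 1.21 CPM, and CDKN2A, which encodes p16 and ARF, 27.6 ± 10.4 against 135 ± 33.3 CPM. Of 35 genes of replication and mitosis, 22 were higher in NGP, 3 were higher in SK-N-BE2 and 10 did not pass the test. The replicative helicase subunits MCM4 and MCM7 averaged 106 ± 4.50 against 389 ± 22.1 CPM and 162 ± 3.40 against 585 ± 97.1 CPM. MKI67, the proliferation marker, was called in the other direction, at 228 against 110 CPM, and several mitotic genes such as PLK1, BUB1 and CENPE did not pass the test.

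RAS signalling genes were led by its feedback inhibitors. Of 20 genes, 9 were higher in SK-N-BE2, 4 were higher in NGP and 7 did not pass the test. These 13 calls of 20 are near the share over all tested genes, 64.8%. SPRY4 had 323, 275 and 297 CPM in SK-N-BE2 and 19.7, 35.3 and 23.8 CPM in NGP (log2 3.51 ± 0.21, adjusted p = 2.09e-07, edgeR). DUSP6, a phosphatase of ERK, averaged 292 ± 8.67 against 24.2 ± 2.53 CPM, DUSP5 41.7 ± 5.87 against 0.644 ± 0.257 CPM, and SPRY2 187 ± 3.68 against 44.7 ± 1.82 CPM. Transcripts of these inhibitors are known to rise with ERK activity. DUSP4 did not follow them, at 181 ± 5.08 and 179 ± 11 CPM.

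Genes of MHC class I antigen presentation, the display of peptides to T cells, were mostly higher in SK-N-BE2. Their summed level was 2546 to 2842 CPM in SK-N-BE2 and 1442 to 1609 CPM in NGP. Of 17 tested, 13 were higher in SK-N-BE2, 1 was higher in NGP and 3 did not pass the test, with a median log2 difference of 2.18. HLA-C had 21.3, 22.6 and 20.9 CPM in SK-N-BE2 and 6 reads over the NGP libraries (log2 9.01 ± 0.26, adjusted p = 3.42e-09, edgeR), and B2M, the shared light chain, averaged 251 ± 32.1 against 58.1 ± 7.73 CPM. HLA genes resemble each other and vary between people, so their counts are uncertain. PSMB8, a subunit of the immunoproteasome, had 0 reads in NGP and 6.00 CPM in SK-N-BE2, at least 303-fold higher. Of 17 interferon response genes tested, 11 were higher in SK-N-BE2, 1 was higher in NGP and 5 did not pass the test. OAS1 and OAS3, sensors of double-stranded RNA, averaged 17.7 ± 2.35 against 0.615 ± 0.233 CPM and 23.4 ± 1.58 CPM against 6 reads. The classical interferon targets MX1, IFI44L and OAS2 were under 0.1 CPM in both lines.

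Among 19 tested genes that write, erase or read m6A, the mark that the drug of this series acts on, 8 were higher in SK-N-BE2, 4 were higher in NGP and 7 did not pass the test. The 12 calls of 19 are near the share over all tested genes, 64.8%. They became 6 without NGP replicate 3 and 7 without SK-N-BE2 replicate 1 or replicate 2. METTL3 had 58.1, 51.4 and 54.3 CPM in SK-N-BE2 and 40.0, 44.6 and 37.0 CPM in NGP, without overlap (log2 0.43 ± 0.13, adjusted p = 0.0132, edgeR). The call was lost without SK-N-BE2 replicate 1 (adjusted p = 0.0593) and without NGP replicate 3 (adjusted p = 0.0767). METTL14, its partner, averaged 47.4 ± 1.48 and 36.7 ± 4.01 CPM. RBM15, which guides the writer complex, differed more, at 107 ± 3.61 against 23.0 ± 6.69 CPM, and the reader YTHDC2 was higher in NGP (log2 -1.02 ± 0.17, adjusted p = 0.000401, edgeR). The eraser ALKBH5 averaged 102 ± 7.77 and 101 ± 4.99 CPM.

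Of 15 telomere genes, none was higher in SK-N-BE2, 6 were higher in NGP and 9 did not pass the test. Without SK-N-BE2 replicate 1 or replicate 3, 3 were called. Over all tested genes 64.8% were called. TERT, the catalytic subunit of telomerase, had 4.43, 2.83 and 4.23 CPM in SK-N-BE2 and 30.8, 21.7 and 23.9 CPM in NGP, without overlap (log2 -2.73 ± 0.22, adjusted p = 1.51e-06, edgeR). WRAP53, which brings telomerase to its site of action, averaged 13.6 ± 1.81 against 41.0 ± 10.3 CPM. ATRX and DAXX, whose loss marks a telomerase-independent route, averaged 93.0 ± 18.6 and 88.0 ± 22.9 CPM and 37.0 ± 2.91 and 36.2 ± 10.0 CPM. Neither passed the test.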

How the data were processed

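RNA was measured in 6 untreated libraries, 3 per line, and the sample titles gave line, treatment and replicate. Reads were assigned by the authors with featureCounts 2.0.5, per the file headers, over exons of protein-coding genes of GENCODE 33 on GRCh38, and the deposited values are whole-number counts that were not normalized. The submitters' processing notes name FastQC 0.11.5, Trimmomatic 0.36, HISAT2 2.1.0 and Subread 1.5.3, the last at another version than the headers give. No strand option was set and pairs were not counted as 1, so reads of overlapping genes cannot be told apart and a fragment can add 2 to a count: 73.4% to 75.4% of counts from 1 to 20 were even. Counting intervals and limits therefore cover counting error only and are too narrow.

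From the counts, edgeR 4.0.16 (R 4.3.3) was run on the 6 libraries alone with filterByExpr (minimum count 10), TMM scaling and the quasi-likelihood test. On counts simulated for this comparison (14205 genes run), 199 genes were changed by a log2 of 1. Of these changes 71.4% were called, and 2.74% of calls were false. In the data 64.8% of tested genes were called, so the simulated share of false calls does not carry over to them. Named genes were MYCN, MDM2, CDK4 and METTL3, the 6 largest differences and the 6 highest silent genes in each direction, up to 4 called members of each list with at least 10 CPM in the higher line, silent members of the identity lists and genes within 3 Mb of MYCN, CDK4 or MDM2 with a log2 difference of at least 2 in size. List members outside this rule were named after their values were seen. Mitochondrial and Y-linked genes were not named, and some genes that the rule names are not reported here. The comparison, the lists and the rules were chosen with earlier results of these data known. Promoters came from a RefSeq table of GRCh38.p14. Of 19923 gene names, 19033 occur in GENCODE 44. Among the named genes, AGAP2, ARHGAP9, B4GALNT1, CDK4, CDKN2A, CDKN2C, DUSP6, EEF1AKMT3, HOXA7, HOXD11, IGF2, INHBE, METTL1, NETO1, NGFR, PDGFRA, SDHD, TSFM, TSPAN31, VIM, VIP, WRAP53, YTHDF2 and HAND2 share over 10% of their exon length with another gene there and are uncertain.

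Alternatives were DESeq2 1.42.0, other scalings and filters, offsets for GC content or exon length, halved counts, robust dispersion, a minimum log2 difference of 1, a joint fit of all 12 libraries, a replicate block, leaving out each library, and other thresholds for silent genes and runs. Arms over genes of at least 10 CPM and 12q without the long runs were added after seeing the data. No pair of replicates agreed within sampling noise.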

Additional observations from a re-analysis of the deposited data

How the results depend on the processing

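No result reversed. The call count was 3980 when a log2 difference of at least 1 was tested, 8153 with a replicate block and 9511 with DESeq2. Correlations between the lines of deviations from the line mean were -0.30, -0.08 and -0.06 for replicates of the same number. For different numbers they ranged from -0.18 to 0.27. With 3 libraries a line, these values cannot say whether the numbers mark a pairing. Leaving out each library in turn gave 8298 to 10384 calls. Of 135 named genes, 134 were called in the main fit, MYCN being the exception. The alternatives gave 1888 values for the 135 genes, of which 1878 kept the outcome of the main fit. The other 10, of 4 genes (AC009779.4, LYZ, METTL3, NOP10), lost the call. With a mean of at least 1 CPM, 17p was -0.77 and 3p -0.26, and with no filter 17p was -0.61 and 11q 0.90. Among genes of at least 10 CPM, 17p was -0.80, 17q -0.52, 12p 0.0042 and 1q 0.25. Without the long runs 12q was -0.14. Leaving out each library gave -0.75 to -0.60 for 17p, -0.45 to -0.37 for 17q and -0.34 to -0.27 for 3p, the smallest without NGP replicate 1. For 12p it gave 0.20 to 0.24 and for 12q -0.28 to -0.22, so the number of arms past 0.25 depended on the libraries used. Genes silent in NGP were 37 at 0 reads, 140 with expression at 5 CPM and 158 under 0.5 CPM, and those silent in SK-N-BE2 were 13, 54 and 77. Runs were 89 with 7 neighbours and 327 with a limit of 1.5. In the joint fit 10 MYC network and 11 telomere genes were called. With the replicate block 3 telomere and 6 m6A genes were called, and leaving out each library gave 3 to 7 and 6 to 11. With halved counts 2 immune and erythroid markers were called. The cause of these changes was not tested. With 3 libraries a line, the spread between replicates limits genes of many reads, and depth limits those of a few.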
